A study of Arabidopsis thaliana with 6 samples.

Results

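The 53 genes described here are relatives of MEE45 in the B3 superfamily of plant transcription factors, together with MEE45 itself. They were found among 31608 annotated genes and loci by their written description, which had to contain the words B3 domain-containing protein, B3 family or reproductive meristem. MEE45 (AT4G00260) was added by its identifier, and the auxin response factors and the seed maturation regulators ABI3, FUS3 and LEC2 were left out. The search itself reads descriptions and no measured value. The text search also missed relatives whose description is worded otherwise, among them VRN1, RTV1 and VDD and the genes that the files name REM7, REM11, REM16 and REM22, and some of these are given separately.

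The B3 domain is a DNA-binding fold found in plants. Its best-known classes are the ABI3, FUS3 and LEC2 regulators of seed maturation, the auxin response factors, the RAV and NGATHA factors of growth and flowering, and the large, mostly uncharacterised REM class, named after REPRODUCTIVE MERISTEM. REM genes often stand in tandem arrays, and many are active in flower meristems, ovules and gametophytes. MEE45 takes its name, MATERNAL EFFECT EMBRYO ARREST 45, from a class of mutants in which embryos stop developing when the mother carries the lesion.

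RNA with polyA tails was sequenced from Arabidopsis siliques (the seed-bearing fruits) 4 days after pollination. The mutant group is labelled mee45 and the wild type was the accession Col-0, with 3 libraries of each, 6 in all. Every sample is labelled silique as its source and seed as its tissue. The series calls the libraries of a genotype biological repeats, whereas its extraction protocol speaks of duplicate collection. Neither says whether plants were grown separately, so the spread that the p-values measure, that between these libraries, may be partly technical. The lesion in mee45 is not described. The deposited values are means by the authors, 1 per genotype over 3 libraries, at a mean depth of 20530953 estimated counts in mee45 and 20242476 in Col-0. Such means give no spread between libraries. A gene is therefore said to have fallen or risen only where the authors' deposited table has an adjusted p under 0.05. Every interval given is an exact 95% binomial interval of the ratio of summed counts at equal depth, which covers counting error only.

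Markers of other tissues moved with the genotype, and their part in the results below was not tested. Of 4 embryo storage genes all 4 were lower in mee45, with a summed level of 3.71 FPKM in mee45 and 1643 FPKM in Col-0. Of 4 endosperm markers 2, AGL62 and FWA, were higher, with a list sum of 34.3 FPKM in mee45 and 24.5 FPKM in Col-0. Of 4 fruit wall markers 2, SHP1 and IND, were higher (list sum 219 FPKM in mee45, 178 FPKM in Col-0), and of 3 ovule and seed coat markers none passed the test (list sum 800 FPKM in mee45, 653 FPKM in Col-0). Of the 5 tested pollen and sperm markers 1, VEX1, was lower, at 2.82 FPKM in mee45 and 11.3 FPKM in Col-0. The whole pollen and sperm list summed to 114 FPKM in mee45 and 84.7 FPKM in Col-0, and the sperm cell regulator DUO1 was listed at 0 in both genotypes. In bulk fruit tissue, fewer cells of a type and less RNA per cell cannot be told apart.

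MEE45 itself was scarce. It had a mean of 0.0333 FPKM in mee45 and 0.65 FPKM in Col-0, which is 3 counts summed over the mee45 libraries and 62 over the Col-0 libraries. The level in mee45 was 4.77% of that in Col-0 (interval 0.958% to 14.6%), with a log2 fold change of -4.29. The gene passed the test, with an adjusted p in the authors' deposited table of 4.34e-06. Its model in the TAIR10.1 annotation lies on chromosome 4 from 114971 to 117051, has 7 exons and is marked as partial at its ends. How the remaining 3 counts are placed along the gene is not known from values per gene.

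Beside MEE45, 6 of the 53 genes fell in mee45 and none rose. Of the 53 genes, 13 had no count in either genotype and 40 were tested. MEE45 included, 7 of those 40 were lower, which is 17.5%, whereas 9.15% of all 25434 tested genes were lower. Without MEE45 the share was 15.4%. None of the 40 was higher, whereas 6.67% of all tested genes were higher, and 1 member, REM12, was higher at an unadjusted p under 0.05. By the authors' own mark, which also asks for a change of at least 2-fold, 6 of the 40 were lower, MEE45 among them, against a background of 4.42%. None was higher, against 1.92%. All 7 called genes had at least 10 mean counts in one genotype, as did 23 of the 53, and of all genes at that depth 10.8% were lower and 7.89% higher. Without MEE45, 27.3% of the members at that depth were lower. The median log2 fold change of the 23, MEE45 included, was -0.0018, and that of the 21045 genes at the same depth was 0.0040.

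**Figure D1:**
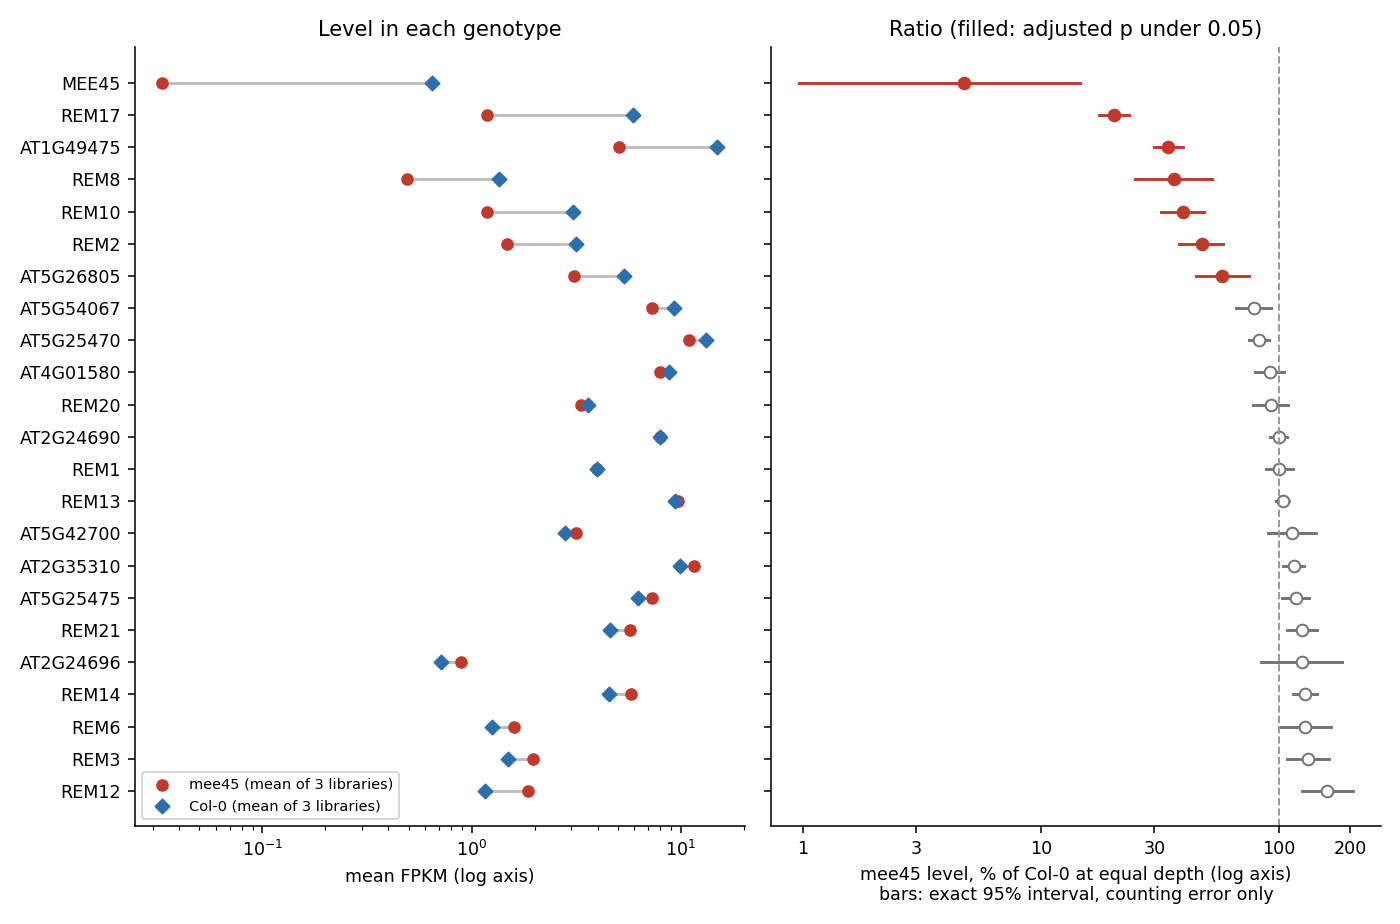
Levels and ratios of the 23 B3 genes with at least 10 mean counts in one genotype. The left panel gives mean FPKM on a log axis (circles mee45, diamonds Col-0, each a mean of 3 libraries). The right panel gives the mee45 level as a percentage of Col-0 at equal depth with exact 95% counting intervals, filled where the authors' deposited table has an adjusted p under 0.05. The 7 filled genes lie between 4.77% and 58.0% of Col-0, and the 16 open ones between 78.4% and 160%.

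REM17 (AT1G26680) fell most after MEE45. It had a mean of 80.0 counts in mee45 and 388 in Col-0, or 1.18 FPKM in mee45 and 5.89 FPKM in Col-0, which is 20.3% of the Col-0 level (17.6% to 23.4%). Its log2 fold change was -2.32, with an adjusted p in the authors' deposited table of 1.25e-08. It is a long gene of 11 exons, and the protein translated from its model has 992 residues, whereas that of MEE45 has 528.

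AT1G49475, described only as a B3 domain-containing protein, had the highest level of all 53 genes in Col-0. Its mean was 5.09 FPKM in mee45 and 14.95 FPKM in Col-0, from 94.7 and 271 mean counts in mee45 and Col-0. This was 34.4% of the Col-0 level (29.9% to 39.4%), with a log2 fold change of -1.55 and an adjusted p in the authors' deposited table of 1.61e-08. In mee45 it ranked below the 4 other genes with the highest mean level over both genotypes, which are given further on. It was also below AT2G24690, AT5G25475, AT5G54067, REM14 and REM21, which had 5.69 to 7.93 FPKM in mee45.

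REM10 (AT2G24700) and REM8 (AT4G31680) fell to similar fractions. REM10 had 44.7 mean counts in mee45 and 111 in Col-0, or 39.6% of the Col-0 level (32.1% to 48.5%), with a log2 fold change of -1.36. REM8 had 14 mean counts in mee45 and 38.0 in Col-0, or 36.3% (24.9% to 52.2%), with a log2 fold change of -1.47. The authors' deposited table has an adjusted p of 0.00114 for REM10 and 0.00106 for REM8. The intervals overlap, so at these depths the size of the fall does not separate the pair.

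REM2 (AT4G31615), which RefSeq also lists as REM35, fell to 47.4% of the Col-0 level (38.3% to 58.4%). REM35 is known, with its neighbour REM34, for a role in the development of the male and female gametophytes. REM2 had 44.7 mean counts in mee45 and 93.0 in Col-0, a log2 fold change of -1.10, and an adjusted p in the authors' deposited table of 0.0060. AT5G26805, a gene of 1 exon whose description comes from a B3 protein of Camelina sativa marked as of low quality, fell least. It had 33.3 mean counts in mee45 and 56.7 in Col-0, or 58.0% (44.8% to 74.7%). Its log2 fold change was -0.79, the authors' deposited table has an adjusted p of 0.0316, and it did not carry the authors' mark for at least 2-fold.

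Together the 7 lower genes summed to 12.6 FPKM in mee45 and 34.4 FPKM in Col-0. The other 46 genes summed to 92.2 FPKM in mee45 and 90.5 FPKM in Col-0. These sums describe genes grouped by the call itself and carry no test.

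Upstream sequence was read for the lower genes because the RY element CATGCA is the site recognised by the B3 domains of ABI3, FUS3 and LEC2. Windows of 300 bases before the annotated start were taken from RefSeq's TAIR10.1 genome for protein-coding genes with a complete model and an annotated 5′ leader. Such windows existed for 25 of the 53 genes and for 5 of the 7 lower genes; MEE45 and REM8 have partial models. CATGCA, on either strand, occurred in 2 of the 5 lower genes, REM2 and AT5G26805, in 5 of the 25 members (20%) and in 10.5% of 20982 windows of all genes. The other 3 members with a match, REM20, REM5 and AT2G16210, were not called. Such small counts show nothing particular to the lower genes or to the 53, and no difference in these shares was tested. CACCTG, the element read by the B3 domain of RAV factors, occurred in 1 of the 25 members and 3.11% of all windows, and TGTCTC, the core of the auxin response element, in 2 of the 25 and 12.6% of all windows; REM2 was one of those 2.

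The stretches below run 5′ to 3′ on the strand of the gene up to the base before its annotated start, with the RY element or its reverse complement in capitals. They show the matches in REM2, where the next gene leaves only 83 bases, and in AT5G26805, and the window of REM17, the gene that fell most after MEE45 and which has none.
REM2, chr4:15322312-15322394, minus strand: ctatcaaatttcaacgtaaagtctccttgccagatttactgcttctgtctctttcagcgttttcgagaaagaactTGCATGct
AT5G26805, chr5:9427243-9427542, plus strand: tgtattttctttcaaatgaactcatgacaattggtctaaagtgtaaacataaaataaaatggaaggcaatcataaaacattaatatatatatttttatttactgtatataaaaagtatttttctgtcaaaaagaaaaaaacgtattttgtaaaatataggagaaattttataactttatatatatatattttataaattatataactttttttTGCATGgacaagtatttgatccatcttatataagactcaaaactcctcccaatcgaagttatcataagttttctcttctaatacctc
REM17, chr1:9219160-9219459, plus strand: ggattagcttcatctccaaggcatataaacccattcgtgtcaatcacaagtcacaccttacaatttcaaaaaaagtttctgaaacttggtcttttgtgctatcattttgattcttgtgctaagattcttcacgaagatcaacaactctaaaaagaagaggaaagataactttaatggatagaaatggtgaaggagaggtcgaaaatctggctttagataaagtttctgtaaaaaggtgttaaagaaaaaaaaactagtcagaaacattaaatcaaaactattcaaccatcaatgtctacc
The element starts 8 bases before the start of REM2 and 87 bases before that of AT5G26805. A match is a string of letters and does not show binding.

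Among the 53 genes, the closest relative of MEE45 by sequence did not pass the test. Proteins translated from the annotated coding sequences of these genes alone were aligned with blastp, and REM14 (AT2G24645) shared 74.1% identity with MEE45 over 552 aligned positions. The next by score were REM10, at 40.9% over 585 positions, and REM6, at 36.7% over 591. REM14 had 217 mean counts in mee45 and 166 in Col-0, or 5.81 FPKM in mee45 and 4.54 FPKM in Col-0. This was 129% of the Col-0 level (115% to 145%), with a log2 fold change of 0.36. It was not called, at an adjusted p in the authors' deposited table of 0.274, although the counting interval lies above 100%. In Col-0, REM14 was thus far more abundant per length than MEE45 at 0.65 FPKM.

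The transcripts of MEE45 and REM14 share no stretch of 150 bases, the length of a read, and their longest identical run is 89 bases. A full-length read could therefore be told apart by sequence, though how the authors' counting divided reads of similar genes is, in the sources used here, not given. Among all 53 genes, 4 shared any stretch of 150 bases with another annotated transcript: AT1G50220, AT2G24670, REM12 and AT2G32645. None of these was called.

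Of the 16 genes whose protein aligned with MEE45 over at least 200 residues, 15 were tested and 4 fell: REM17, REM10, REM2 and REM8. The remaining 11 did not pass the test. Of the 36 other genes, 24 were tested and 2 fell, AT1G49475 and AT5G26805, where 9.15% of all tested genes were lower. AT1G49475 aligned with MEE45 over only 49 residues. For AT5G26805 and many others of the 36 no alignment with MEE45 was found. Such small counts describe these groups and show nothing particular to either. The limit of 200 residues was set after the values had been seen, and the difference between these groups was not tested. Among the near relatives with enough counts the median log2 fold change was 0.03, with a range from -2.32 to 0.69.

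**Figure D2:**
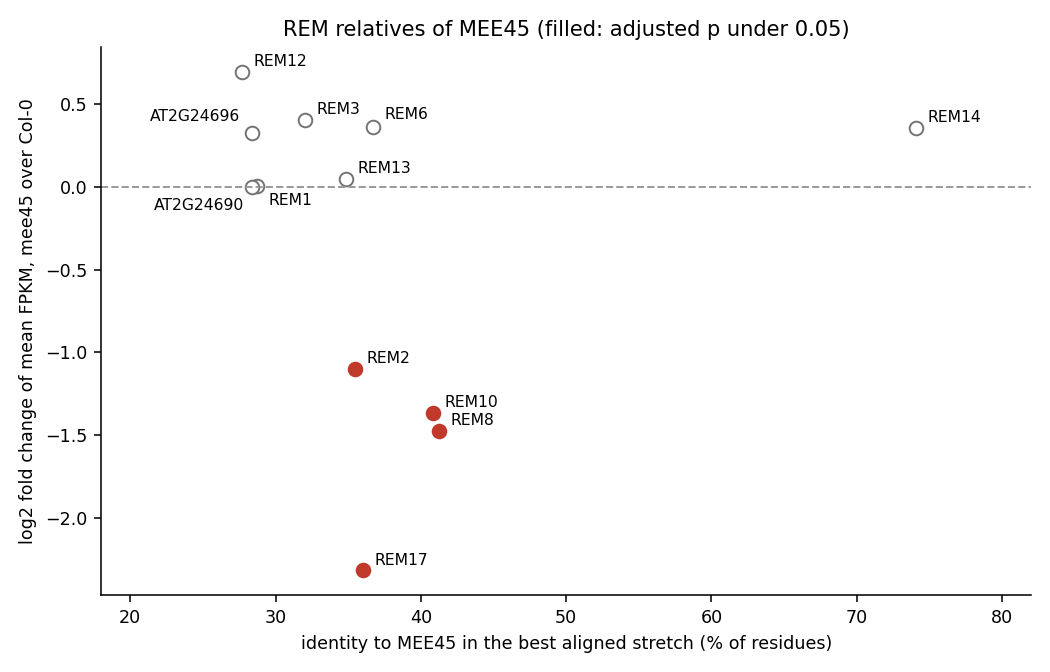
Log2 fold change of mean FPKM, mee45 over Col-0, against identity to MEE45 in the best-scoring aligned stretch, for the 12 relatives that align over at least 200 residues and have at least 10 mean counts. Filled points had an adjusted p under 0.05 in the authors' deposited table. REM14, at 74.1% identity, lies at 0.36, while REM10 and REM8, at 40.9% and 41.2%, lie at -1.36 and -1.47.

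Neighbours in tandem arrays differed in whether they passed the test, but such small counts show nothing particular to the arrays. On chromosome 4, 8 of the genes stand in an array from REM1 to REM9, each within 20000 bases of the next. Of the 7 tested there, REM2 and REM8 fell, where 9.15% of all tested genes were lower. REM1 (also listed as REM34), REM3 (REM36) and REM6 had 101%, 133% and 129% of their Col-0 levels and were not called. REM1 had 163 mean counts in mee45 and 160 in Col-0, with an interval of 88.6% to 114%. REM3 had 74.0 mean counts in mee45 and 55.0 in Col-0, with an interval of 108% to 163% and an adjusted p in the authors' deposited table of 0.420. REM2 lies between this pair, and its end overlaps that of REM1 on the other strand. That overlap runs only from base 15320026 to base 15320046, so no full-length read of 150 bases lies within it. A shorter read within it could not be told apart without strand. REM2 and REM1 share no stretch of 150 bases. REM2 and REM3 are each other's closest relatives within the 53, at 58.8% identity, and their transcripts share runs of at most 57 bases.

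The rest of the array on chromosome 4 was near the limit of detection. REM5 had 8 summed counts in mee45 and 15 in Col-0, or 52.6% (19.3% to 132%). REM4 had 3 summed counts in mee45 and 1 in Col-0, a ratio of 296% with an interval from 23.8% to 15530%. REM9, whose protein is 78.6% identical to that of REM8 over 271 positions, had none in either genotype. Summed over the 8 genes, the array had 1044 counts in mee45 and 1165 in Col-0.

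A second array of 7 genes stands on chromosome 2. Of the 6 tested there, only REM10, at one end of the array, was called, where 9.15% of all tested genes were lower. REM14 is at the other end. REM13 (AT2G24650) had 627 mean counts in mee45 and 596 in Col-0, or 104% (97.3% to 111%), and AT2G24690 had 385 mean counts in mee45 and 380 in Col-0, with an interval of 92.0% to 109% of the Col-0 level. REM12 (AT2G24680) had 58.0 mean counts in mee45 and 35.7 in Col-0, a log2 fold change of 0.69 and 160% of Col-0 (125% to 206%). It was the uncalled gene with the smallest adjusted p, 0.120 in the authors' deposited table. Its last part overlaps AT2G24670 on the other strand, and 4.52% of the 150-base stretches of REM12 are shared with that gene. With the strandedness of the counting not given, reads within the overlap cannot be told apart. AT2G24670 had no count in either genotype. The array had 4058 summed counts in mee45 and 3913 in Col-0.

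**Figure D3:**
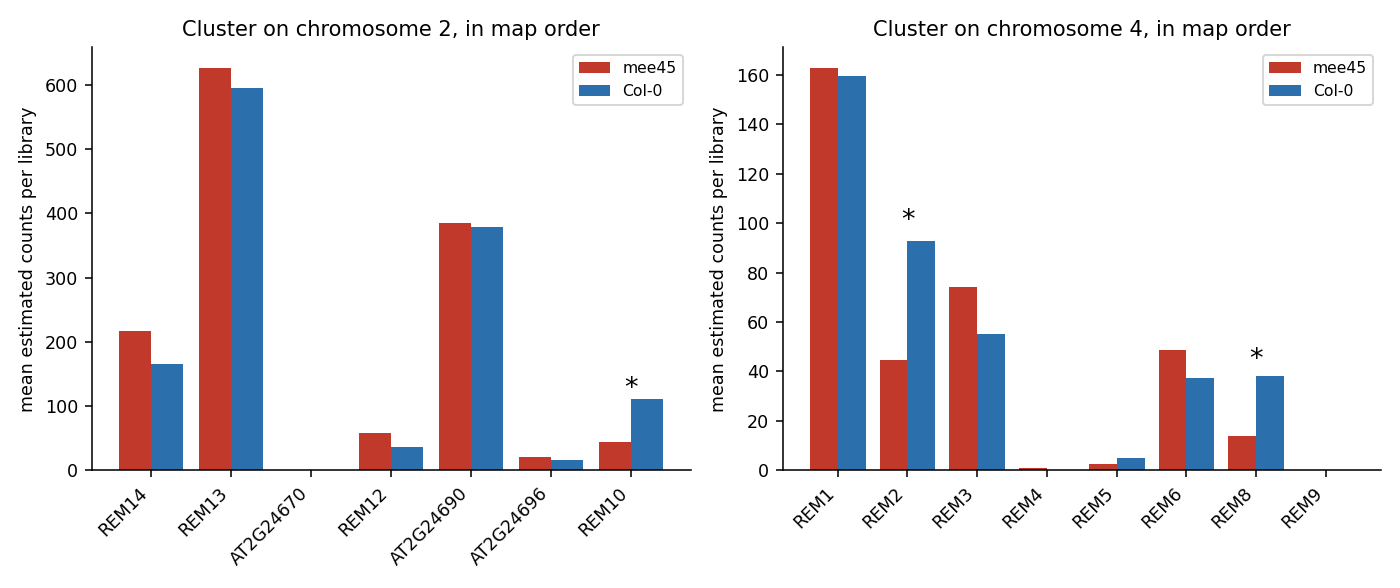
Mean estimated counts per library (left bar of each pair mee45, right bar Col-0, each a mean of 3 libraries with no spread available) for the genes of the 2 larger arrays in map order. Asterisks mark an adjusted p under 0.05 in the authors' deposited table. REM10 on chromosome 2 and REM2 and REM8 on chromosome 4 are marked, and their neighbours are not. REM11 and REM7, which lie in these regions but were not found by the text search, are not drawn.

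Of the 5 most abundant of the 53 genes, AT1G49475 alone passed the test. The 5 highest of the 53 by mean FPKM over both genotypes were AT5G25470, AT2G35310, AT1G49475, REM13 and AT4G01580. AT5G25470 had 10.9 FPKM in mee45 and 13.3 FPKM in Col-0, which is 82.5% (74.9% to 90.8%), and with an adjusted p in the authors' deposited table of 0.310 it came closest to a call among the lower genes that missed it. Its neighbour AT5G25475, 59.5% identical in protein, had 7.32 FPKM in mee45 and 6.26 FPKM in Col-0. AT2G35310 had 11.6 FPKM in mee45 and 9.97 FPKM in Col-0, and AT4G01580, the closest relative of AT1G49475 within the 53 at 51.9% identity, had 7.97 FPKM in mee45 and 8.76 FPKM in Col-0. Thus AT1G49475 fell to 34.4% and AT4G01580 was at 91.6% (79.5% to 106%).

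Over the 16 genes with at least 10 mean counts that were not called, log2 fold changes ran from -0.35 to 0.69, with 11 above and 5 below zero. REM20 and REM21, which are each other's closest relatives within the 53, were at 92.6% (78.3% to 109%) and 125% (108% to 144%) of their Col-0 levels. The median level of the 23 genes was 3.32 FPKM in mee45 and 4.54 FPKM in Col-0, below the median of all genes at that depth, 12.3 FPKM in mee45 and 12.6 FPKM in Col-0.

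The remaining 17 tested genes had at most 6.0 mean counts in either genotype, and none was called. For 7 of these one genotype was at 0 and the other had at most 3 summed counts, so no fold is given. AT3G17010, which RefSeq names REM22 although the files give that symbol to AT3G46770, had 1 summed count in mee45 and 3 in Col-0, a ratio of 32.9% with an interval from 0.626% to 409%.

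Other classes of the superfamily held calls in both directions. ABI3, FUS3 and LEC2, which drive seed maturation, were all lower, with log2 fold changes of -1.99, -1.88 and -0.69. Of 23 auxin response factors 1 fell, ARF11 at -1.42, and 1 rose, ARF8 at 0.54. Of all tested genes 9.15% were lower and 6.67% higher, and the small counts in this paragraph show nothing particular to any class. Among 3 VAL repressors, which silence the maturation programme after germination, VAL1 fell to 957 mean counts in mee45, against 1335 in Col-0, with a log2 fold change of -0.51. Of 5 tested RAV genes TEM2, a repressor of flowering, fell to 5.33 mean counts in mee45, against 20.3 in Col-0. Of 7 NGATHA and NGATHA-like genes NGAL3 (AT5G06250), whose name in RefSeq is DPA4, rose to 121 mean counts in mee45, against 52.0 in Col-0, a log2 fold change of 1.20 and an adjusted p in the authors' deposited table of 8.44e-05. The called VAL, RAV and NGATHA genes were named after their values had been seen.

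Of the 4 characterised REM genes outside the text search, VDD was called, where 6.67% of all tested genes were higher. VDD (AT5G18000), VERDANDI, which acts in the cells of the female gametophyte, rose to 382 mean counts in mee45; Col-0 had 232, a ratio of 162% (148% to 178%), with an adjusted p in the authors' deposited table of 0.00118. VRN1, which keeps the floral repressor FLC silent after winter, had 1065 mean counts in mee45 and 985 in Col-0. RTV1, a relative of VRN1, had 1360 mean counts in mee45 and 1443 in Col-0, and REM16, a promoter of flowering, had 67.3 in mee45 and 112 in Col-0; these 3 did not pass the test. VDD was chosen for mention after its value had been seen.

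**Figure D4:**
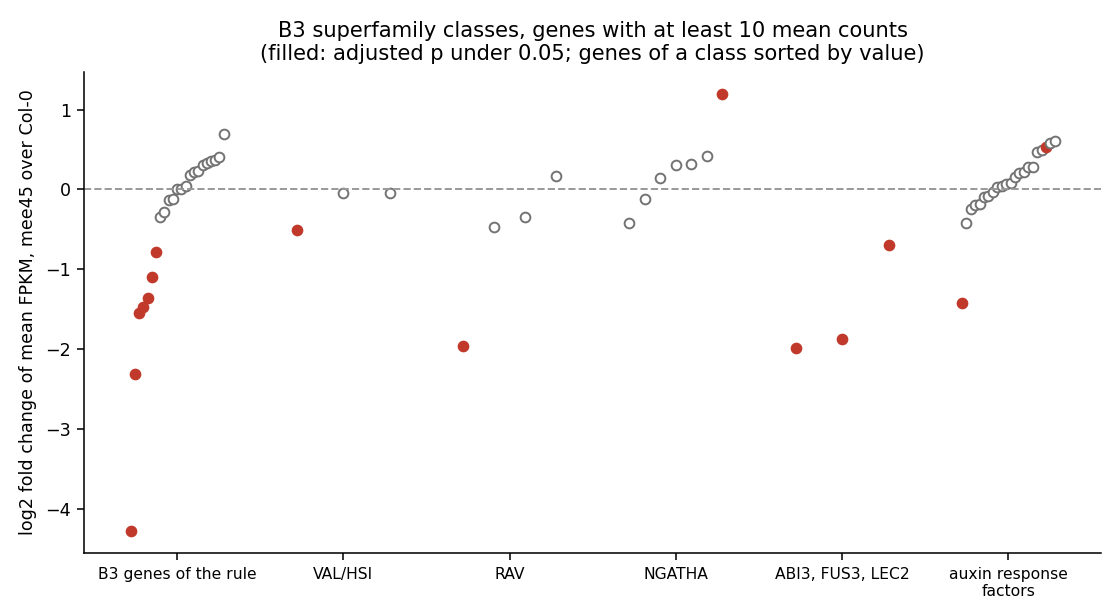
Log2 fold change of mean FPKM, mee45 over Col-0, for genes with at least 10 mean counts in the 53 B3 genes and in 5 other classes of the superfamily, sorted by value within each class. Filled points had an adjusted p under 0.05 in the authors' deposited table. The 53 genes hold 7 filled points, MEE45 among them, all below zero, and all 3 maturation regulators are filled and below zero. Relatives outside the text search that belong to none of these classes are not drawn. Of those, VDD and AT5G18090 rose, and AT1G08985 and AT3G18960 fell.

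Beyond the superfamily, ANT, an AP2 factor of ovule and organ growth, had 114 mean counts in mee45 and 170 in Col-0. That is 65.8% of the Col-0 level (57.2% to 75.6%), with an adjusted p in the authors' deposited table of 0.219. The auxin synthesis gene YUC4 fell to 4.67 mean counts in mee45; Col-0 had 20.3, so the ratio was 22.6% (11.7% to 40.9%), with an adjusted p in the authors' deposited table of 0.00638.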

How the data were processed

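Per the submitters' processing notes, the build was TAIR10 and the tools were edgeR, RSEM, Cufflinks, TopHat2 2.0.3.12, Bowtie2 2.2.8 and fastp 0.18.0, without the role of each. Reads were 150-base pairs, per the labels' protocols. The authors deposited estimated counts and FPKM as 1 mean per genotype over 3 libraries: 95.9% of mee45 and 95.8% of Col-0 means give whole counts within 0.01 when multiplied by 3. The p-values, adjusted p-values and log2 fold changes of the authors' deposited table cover 25434 genes, and that table sets zero FPKM to 0.001. The planned count test per library could not be run on means, so calls are the authors', at an adjusted p under 0.05.

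Log2 fold changes here are ratios of mean FPKM, with none given where a genotype was at 0. Summed counts are 3 times the deposited mean, rounded, and gave exact binomial intervals (scipy 1.17.1). A check of these intervals used simulated counts with no spread between libraries. That is the setting the intervals assume, so the check checked the code and not their fit to these data. No molecular identifiers are named in the labels, so reads may be PCR copies and intervals cover counting error only. Loci, transcripts and upstream windows came from RefSeq's TAIR10.1 (53 of 53 genes matched), and proteins were compared with blastp 2.17.0. The members and lists were chosen with earlier results of these data known. Named genes are MEE45, called genes, the 5 with the highest FPKM, characterised members, and the uncalled gene with the smallest adjusted p on each side; REM14 and others named as such were added after values were seen. Alternatives covered thresholds, filters, scaling, pseudocounts and the family's definition.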

Additional observations from a re-analysis of the deposited data

How the results depend on the processing

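No paired analysis was possible because the files used hold genotype means, and for the same reason no library could be left out in turn. The count of lower genes, 7, ranged from 6 to 10: 6 at an adjusted p under 0.01, 6 by the authors' 2-fold mark, 6 without MEE45, 9 with the genes described as AP2/B3-like and the characterised REM genes added, and 10 with ABI3, FUS3 and LEC2 added. The count of higher genes, 0, became 1 at an unadjusted p under 0.05 and 3 with the AP2/B3-like and characterised REM genes added, so the absence of higher genes depends on how the family is defined. The last alternative, the authors' mark and the count without MEE45 were chosen after seeing the data. Leaving out VAL, RAV and NGATHA genes changed nothing, since the text search found none. The median log2 fold change stayed between -0.0062 and -0.0003 under every scaling, pseudocount and filter tried. Much of this was fixed in advance. The median of 23 genes is the value of a single gene, here AT2G24690 near zero. Scaling moves all genes by close to the same amount, and a pseudocount keeps the sign of each fold. Counts scaled to their total give the point estimate of each counting interval, and the median ratio shifts every gene by the same small amount. All 16 named genes therefore lay inside their intervals by construction, and this tests nothing. With log2(FPKM + 1), 5 lay outside: MEE45 at -0.68, REM17 at -1.66, REM10 at -0.89, REM2 at -0.75 and REM8 at -0.66, as a pseudocount shrinks low genes by construction; with log2(FPKM + 0.1) only MEE45 did, at -2.49. The 17 tested genes under 10 mean counts have wide counting intervals.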

Other observations

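Genes described as AP2/B3-like, 21 in all and outside the text search, went both ways. Of the 20 tested, 2 were lower and 2 higher, where 9.15% and 6.67% of all tested genes were lower and higher. AT3G18960 had 146 mean counts in mee45 and 338 in Col-0, a log2 fold change of -1.24, and the authors' deposited table has an adjusted p of 6.38e-07. AT1G08985 had 185 mean counts in mee45 and 336 in Col-0, a log2 fold change of -0.88. AT5G18090 had 167 mean counts in mee45 and 109 in Col-0, a log2 fold change of 0.58, and the second higher gene was NGAL3. The most abundant of them, AT5G60140, had 76.3 FPKM in mee45 and 77.2 FPKM in Col-0 and was not called. REM22 as the files name it (AT3G46770) had 141 mean counts in mee45 and 119 in Col-0, and REM7 and REM11, which stand in the arrays on chromosomes 4 and 2, had at most 5.33 in either genotype; none of the 3 was called. These genes were named after their values had been seen.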
